A study of Mus musculus with 24 samples.

Results

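The responses of SIM-A9 cells to (GT)6 SWCNT and to COOH SWCNT were compared directly, library against library. SIM-A9 is a mouse microglial cell line, and SWCNT are single-walled carbon nanotubes. In the (GT)6 preparation the tube is wrapped in a short single-stranded DNA of repeated G and T, and in the other the tube is carboxylated. The comparison used 6 of the 24 libraries of the study, 3 per preparation, and the 13116 of 54838 genes that passed a filter on low counts. A gene that differed was then placed by its response in each preparation relative to the 3 untreated control libraries, as a difference in strength of a response shared by both or as a change called in a single preparation. Cells were in 270 uL of serum-free medium, and RNA was taken 2 h after 30 uL of sample was added; the labels give the same protocol for every group and do not say what the untreated wells received. The labels give no nanotube concentration and describe no DNA-only well, so the coating and the amount of tube cannot be told apart. The other 15 libraries (LPS, 3 dyes and AAV) entered the estimate of the spread. LPS, the study's inflammatory positive control, is set beside the results throughout, and the dyes and AAV beside a few of them.

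Microglia are the resident macrophages of the brain. Particles and bacterial products engage their surface and endosomal receptors, and signalling through the transcription factor NF-kB and through the ERK and other MAP kinases then switches on immediate early genes within minutes and cytokine and chemokine genes within hours. Serum response factor (SRF) drives a further early programme of actin and adhesion genes, and the integrated stress response raises the transcription factor ATF4 and its targets. Lipopolysaccharide (LPS), a bacterial outer membrane component, acts through the receptor TLR4 and is the usual reference for such responses.

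Total counts were 17364272 to 24895659 in the (GT)6 libraries, 19950689 to 26070623 in the COOH libraries and 18176305 to 23155577 in the controls. Levels below are CPM, a gene's count relative to its library's total, scaled by the edgeR library factors, and a gene was called where the Benjamini-Hochberg adjusted p of edgeR's quasi-likelihood test was under 0.05 over all 13116 genes. All 14 microglia and macrophage markers passed the filter, with a summed level of 3300 to 3490 CPM in (GT)6 and 3180 to 3360 CPM in COOH libraries. Of another list, of 23 microglial identity and chemoattractant receptor genes, 17 were tested. The identity genes *Sall1*, *Siglech* and *Gpr34* were among those not tested. Astrocyte, neuron and fibroblast marker sums were at most 0.551 CPM in each of these libraries, and *Aqp4*, *Gad1*, *Snap25*, *Syt1*, *Dcn* and *Lum* had no count. The oligodendrocyte sum was 3.82 to 5.8 CPM, with *Mobp* and *Mog* at 0 counts. The endothelial sum of 102 to 138 CPM came almost wholly from *Kdr*, with *Cldn5* at 0 counts, and *Kdr* was lower in (GT)6 than in COOH libraries (log2 difference -0.32). The part of other cell types in the results was not tested. The labels do not say that replicates came from separate cultures, so p-values measure the spread between these samples.

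Of the tested genes, 2801 (21.4%) differed between the preparations, 1557 (11.9%) higher and 1244 (9.48%) lower in (GT)6. The higher genes were 55.6% of these, but 44.4% with upper-quartile scaling and 71.0% with length and GC trends removed. In 4659 of the 13116 tested genes, called or not, the (GT)6 and COOH libraries did not overlap. Genes named by class were picked partly for this lack of overlap, so for them it adds no support. Separation from the control libraries was not counted over all genes, so where it is given below it only describes that gene. Most differences were small, with a median size of 0.23 on the log2 scale among the called genes. A size of at least 1 was reached by 71 genes (0.541%), 32 higher and 39 lower, but 48 of these averaged under 1 CPM. Only 8 averaged at least 5 CPM, of which *Cxcl2*, *Gdf15* and *Ccl7* are described below, and the rest were named after their values were seen. *P2ry10b*, a receptor gene related to the purinergic receptors, measured 51.5, 55.4 and 51.9 CPM in (GT)6 and 25.3, 25.5 and 27.4 CPM in COOH libraries, from 18.7 to 21.2 CPM in controls. It rose in both preparations without overlap (1.02 ± 0.07). The 4 lower genes, *Lars2*, *Rgs9*, *Gm24187* and *Gm24270*, had 1 library apart in (GT)6: *Lars2*, a mitochondrial leucyl-tRNA synthetase gene, measured 468, 558 and 1432 CPM there and 1914, 1435 and 1591 CPM in COOH libraries. *Lars2* also varied widely within other groups, from 747.5 to 1259 CPM in controls and from 392.1 to 1608 CPM in LPS libraries. Against control, (GT)6 raised 1298 genes (9.9%) and lowered 1382 (10.5%), and COOH raised 1232 (9.39%) and lowered 1395 (10.6%). Both comparisons use the same control libraries, so noise in those enters both.

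Of the 1130 genes called in the same direction in both preparations against control, 449 also differed between them, and the response was larger in (GT)6 in 411 of these. The main group was 322 genes raised by both and more by (GT)6, with a median log2 rise of 0.68 in (GT)6 and 0.38 in COOH. For these the COOH rise was a median 56.6% of the (GT)6 rise on the log2 scale. The class rule fixes a smaller rise in COOH, and of the 1130 genes the 681 without a direct call do not enter this share. Only 5 genes were raised by both and more by COOH. Of the shared falls, 89 were deeper in (GT)6 and 33 deeper in COOH. Changes called in a single preparation, and different between the preparations by the direct test, numbered 814 for (GT)6 (255 raised, 559 lowered) and 818 for COOH (173 raised, 645 lowered). In these classes a small median change in the other preparation likewise follows from the rule. A gene without a call in a preparation is not shown to be unchanged there. A further 18 genes were called in opposite directions, and 702 differed between preparations without a call against control in either.

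**Figure D1:**
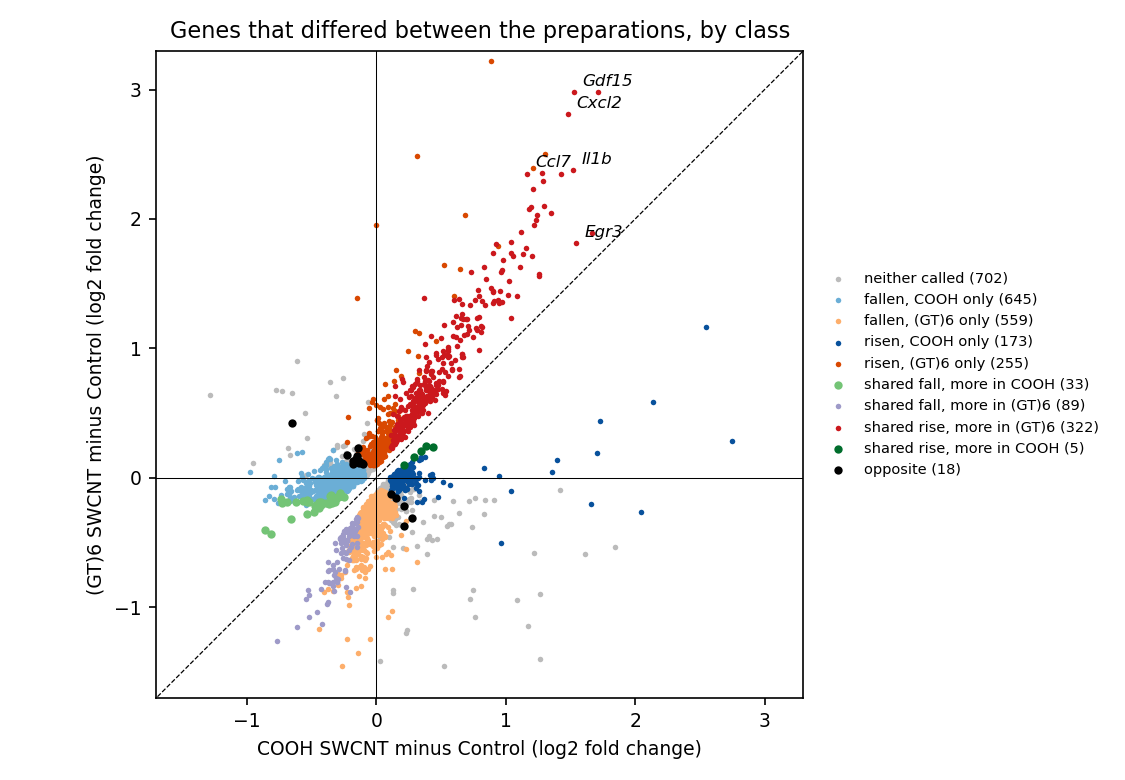
Each point is 1 of the genes that differed between the preparations, placed by its log2 fold change against control in COOH (x) and (GT)6 (y) and coloured by class, with the number of genes per class; 7 points lie outside the axes. The 322 shared rises larger in (GT)6 lie above the dashed line of equal response, as the class rule fixes, and reach *Gdf15* (1.53, 2.98) and *Cxcl2* (1.48, 2.81). Both axes use the same control libraries.

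Many inflammatory mediators rose in both preparations and more in (GT)6. Of 24 tested cytokine and chemokine genes, 13 were higher in (GT)6 and 0 lower, with a median difference of 0.64 against -0.01 over all genes. Of these, 12 rose in both preparations, and *Ccl9* was called against control in (GT)6 only. *Cxcl2*, a neutrophil chemoattractant (chromosome 5, 90903871 to 90905938, plus strand), measured 15.2, 11.3 and 12.5 CPM in the controls. It measured 85.6, 89.9 and 96.6 CPM in (GT)6 and 35.7, 36.9 and 35.5 CPM in COOH libraries. The 3 groups did not overlap, and every library of both preparations lay above every control. The difference was 1.33 ± 0.07 (SE) on the log2 scale (edgeR adjusted p = 3.01e-16).

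*Ccl7*, a monocyte chemoattractant, measured 27.6, 28.9 and 25.2 CPM in (GT)6 and 10.6, 12.3 and 13.3 CPM in COOH libraries, against 4.89, 5.11 and 6.09 CPM in controls. Its (GT)6 libraries were all above the LPS libraries, which held 20.2, 23.1 and 24.5 CPM. *Il1b*, the gene of interleukin-1 beta, measured 50.9, 48.0 and 43.5 CPM in (GT)6 and 25.95, 29.01 and 24.4 CPM in COOH libraries, with 8.22 to 9.96 CPM in controls. Its groups did not overlap either (difference 0.85 ± 0.07), and an antisense gene, *Il1bos*, overlaps it. *Tnf* was nearer between preparations, at 91.8 to 92.7 CPM in (GT)6 and 65.0 to 72.0 CPM in COOH libraries, from 34.6 to 37.0 CPM in controls. Its difference of 0.44 ± 0.05 was again free of overlap. The chemokines *Ccl3* (0.84), *Ccl4* (0.91) and *Ccl2* (0.67), the cytokine *Il1a* (0.79), the macrophage growth factor *Csf1* (0.46) and *Osm* (0.41), an interleukin-6 family cytokine, differed in the same direction. *Il6* did not pass (0.83, edgeR adjusted p = 0.0561), at 0.746 CPM in (GT)6 and 0.421 CPM in COOH on average.

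Genes of the NF-kB system included members that differed in the same way and members whose interval lay close to 0. Of 24, 23 rose in (GT)6 and 22 in COOH, yet 10 were higher and 1 lower in the direct test, with a median difference of 0.11. The prostaglandin synthase gene *Ptgs2* measured 133, 135 and 132 CPM in (GT)6 and 85.7, 89.6 and 77.8 CPM in COOH libraries, with 38.4 to 42.97 CPM in controls. It differed by 0.66 ± 0.05 without overlap, as did the signalling adaptor *Traf1* (0.63 ± 0.06). The inhibitor gene *Nfkbia* differed by 0.29. By contrast *Tnfaip3*, another feedback inhibitor, measured 37.3 to 37.8 CPM in (GT)6 and 35.03 to 39.98 CPM in COOH libraries, from 23.3 to 23.7 CPM in controls. Its groups overlapped, and the 95% interval of the difference ran from -0.13 to 0.10. The adhesion gene *Icam1* gave an interval from -0.10 to 0.08 and *Nfkb2* one from -0.13 to 0.05. Both rose in each preparation.

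Promoter sequences were searched for the motifs of the factors named above. RefSeq promoter sequences (build GRCm38.p6) matched 9378 of the 13116 tested genes and 250 of the 322 shared rises larger in (GT)6. In the 250 bases before the start, the NF-kB motif, searched by its consensus on both strands, was found in 8.4% of the 250 promoters and 4.36% of the 9378. Some other motifs were nearer the share of all promoters. AP-1 (TGANTCA) was at 5.2% against 4.18% and the C/EBP-ATF element (TGATGNAA) at 3.2% against 2.02%. The EGR motif (GCGNGGGCG) was at 12.4% against 8.81% and the antioxidant response element (TGANNNNGC) at 40.8% against 36.8%. In the nearest 100 bases the NF-kB motif was at 3.2% against 1.72%, AP-1 at 2.8% against 1.59% and C/EBP-ATF at 1.6% against 0.714%. The stretches below were chosen because they carry a match in genes of the comparison, and capitals mark the match. *Fos*, called against control in COOH only, also carries a match, which is not shown. No match was found for *Tnf*, *Il1b*, *Ptgs2* or *Traf1*, a result that a gene without a matched promoter sequence would also give. In *Cxcl2* the capitals hold 2 overlapping matches, while *Cxcl10*, an interferon-inducible chemokine gene, has 2 separate matches. *Ccl9* was called in (GT)6 only, and *Tnip1* rose more in COOH, a call lost in 7 of 9 fits without a library and in 5 of 9 other settings.
Cxcl2, chr5:90903787-90903827, plus strand: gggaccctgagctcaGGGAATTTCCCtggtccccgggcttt
Cxcl10, chr5:92348968-92349063, minus strand: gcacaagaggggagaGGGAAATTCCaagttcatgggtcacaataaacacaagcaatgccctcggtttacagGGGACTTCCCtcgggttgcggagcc
Ccl9, chr11:83578647-83578686, minus strand: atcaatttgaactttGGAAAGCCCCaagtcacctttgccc
Tnip1, chr11:54962972-54963013, minus strand: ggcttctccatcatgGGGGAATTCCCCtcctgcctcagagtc
A match is a description of these letters and was not read as a bound site.

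**Figure D2:**
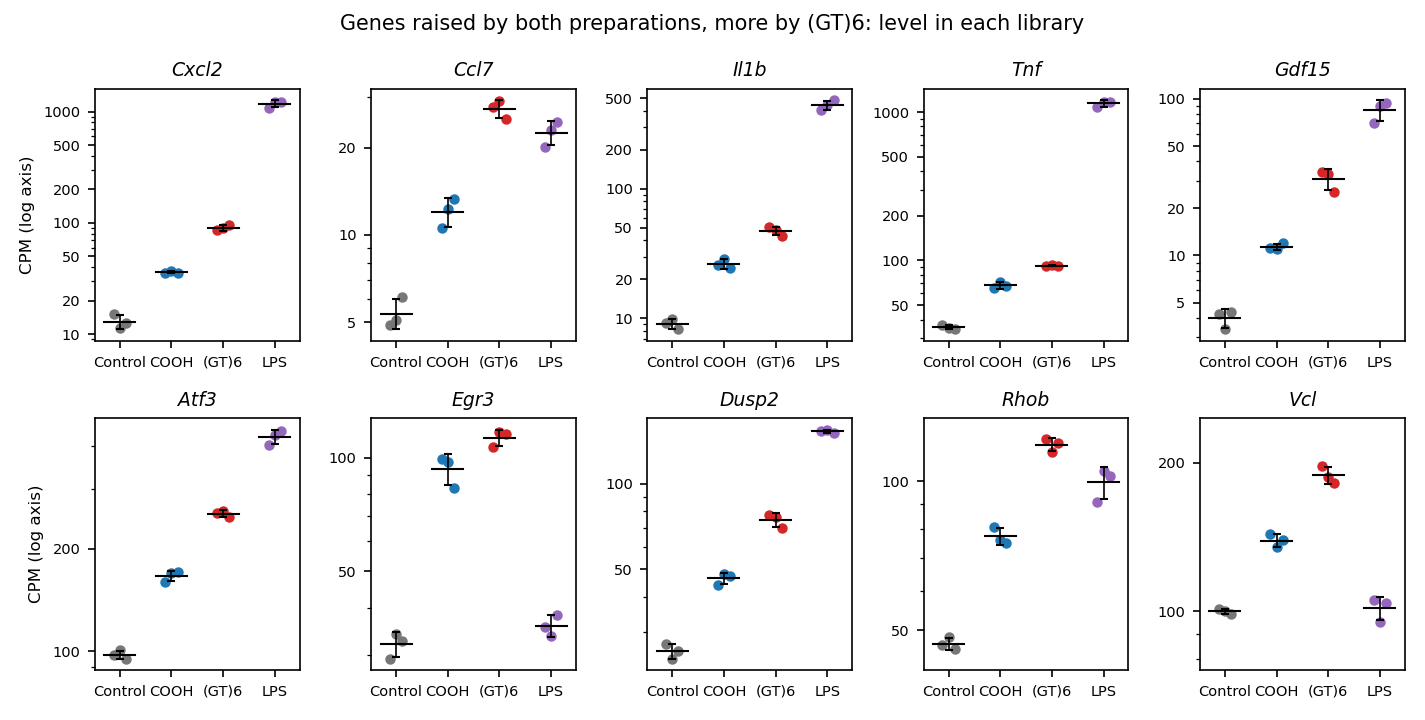
Level in each library (points, 3 per group; CPM on a log axis) of 10 genes raised by both preparations and more by (GT)6, with the group mean (line) and SD (bars). In all 10 the COOH libraries lie between the control and the (GT)6 libraries, and *Egr3* and *Vcl* stay near the control level in the LPS libraries.

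Immediate early transcription factors behaved alike in direction, with smaller gaps. Of 24, 20 rose in (GT)6 and 21 in COOH, and 14 were higher and 2 lower in the direct test (median difference 0.29). *Atf3*, a stress-induced repressor of the ATF family, measured 254, 259 and 247 CPM in (GT)6 and 160, 169 and 170 CPM in COOH libraries, from 95.3 to 101 CPM in controls. These groups did not overlap (0.61 ± 0.04, edgeR adjusted p = 1.03e-12). *Egr3*, a zinc-finger factor induced by ERK and calcium signals, measured 107, 117 and 116 CPM in (GT)6 and 99.5, 97.6 and 83.3 CPM in COOH libraries, from 29.3 to 34.04 CPM in controls. Its groups still did not overlap, the difference was 0.27 ± 0.06, and COOH reached 84.9% of the (GT)6 log2 rise. LPS moved *Egr3* by 0.16 on the log2 scale, which did not pass the test. *Fosl1*, *Fosl2*, *Junb* and *Maff*, subunits of AP-1 type factors, were higher in (GT)6 by 0.39 to 0.53. *Nr4a1*, a nuclear receptor gene, rose in both preparations without passing in the direct test (95% interval -0.36 to -0.05), and so did *Arc* (-0.30 to 0.02). *Myc* was 0.62 ± 0.14 higher in (GT)6, at 7.91 to 8.38 CPM against 4.14 to 6.37 CPM.

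*Fos*, the partner of Jun in AP-1, went the other way. It measured 16.5, 15.9 and 16.6 CPM in COOH and 10.4, 11.6 and 12.01 CPM in (GT)6 libraries, from 10.8 to 14.0 CPM in controls. The COOH libraries were above all others, and the (GT)6 libraries overlapped the controls. *Fos* was thus called against control in COOH only, with a difference of -0.54 ± 0.09, and without control replicate 3 that class was lost. The ERK feedback and growth-factor response genes resembled the immediate early genes. Of 18 genes of this list, 10 were higher and 1 lower (median 0.29). The phosphatase gene *Dusp2* measured 77.6, 76.1 and 70.0 CPM in (GT)6 and 44.1, 47.9 and 47.2 CPM in COOH libraries, from 24.2 to 27.3 CPM in controls. Its difference of 0.69 ± 0.05 came without overlap, and *Dusp8* (0.78 ± 0.11, overlapped by the gene *Gm32786*) did the same. *Etv5*, a transcription factor of the same list, was lower in (GT)6 (-0.42) and was called lower than control in (GT)6 only. The cyclic AMP response element (TGACGTCA) was present in 6.4% of the promoters of the shared rises larger in (GT)6 and 2.85% of all. In the nearest 100 bases these shares were 3.6% and 2.19%. The promoter start used for *Dusp8* lies 559 bases from the start of the gene in the GENCODE annotation. Its promoter carries 2 copies, in capitals.
Dusp8, chr7:142095325-142095406, minus strand: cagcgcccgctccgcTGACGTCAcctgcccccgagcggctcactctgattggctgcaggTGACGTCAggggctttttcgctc

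Of 14 SRF and cytoskeleton genes, 12 were higher in (GT)6 and 0 lower, with a median difference of 0.29. Leaving out COOH replicate 1 gave 10. *Vcl*, the gene of vinculin, which links adhesions to actin, measured 197, 188 and 182 CPM in (GT)6 and 143, 135 and 139.5 CPM in COOH libraries. Controls held 99.0 to 101 CPM and the LPS libraries 95.1 to 106 CPM. (GT)6, COOH and control groups did not overlap (0.44 ± 0.04, edgeR adjusted p = 1.68e-09), and *Vcl* did not pass in LPS (0.02). The gene *Ap3m1* overlaps *Vcl*. *Rhob*, a small GTPase gene of the actin system, measured 122, 115 and 119 CPM in (GT)6 and 81.0, 76.1 and 75.2 CPM in COOH libraries. It differed by 0.62 ± 0.05 with no overlap and was also raised by LPS. The adhesion gene *Zyx* (0.43), *Srf* itself (0.33) and the actin genes *Actg1* (0.31) and *Actb* (0.29) rose in both preparations and more in (GT)6. The tropomyosin genes *Tpm1* (0.37) and *Tpm4* (0.28) were called against control in (GT)6 only. *Flna* and *Tagln2*, both actin-binding, rose in both and did not pass in the direct test, with 95% intervals of the difference from -0.08 to 0.10 and from -0.07 to 0.07. The CArG box, the motif SRF binds, was found in 5.6% of promoters of the shared rises larger in (GT)6 and in 0.992% of all. In the nearest 100 bases these shares were 4.4% and 0.416%. *Vcl* carries it in capitals.
Vcl, chr14:20929156-20929195, plus strand: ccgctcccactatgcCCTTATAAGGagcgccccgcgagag

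Stress genes split between classes. *Gdf15*, a stress-induced cytokine of the TGF-beta family, had the largest difference of the called genes averaging at least 5 CPM. It measured 34, 33.2 and 25.4 CPM in (GT)6 and 11.2, 10.9 and 11.9 CPM in COOH libraries, from 3.36 to 4.38 CPM in controls, without overlap. The difference was 1.45 ± 0.11 (edgeR adjusted p = 5.78e-12). *Chac1*, a glutathione-degrading enzyme gene induced by ATF4, differed by 1.07 ± 0.21 at low levels of 3.05 to 5.54 CPM in (GT)6 and 1.85 to 2.39 CPM in COOH. *Atf4* was called against control in (GT)6 only, at 372 to 394 CPM against 271 to 298 CPM in COOH and 274 to 298 CPM in controls. *Asns*, an amino acid synthesis target of ATF4, gave a difference of 0.01, with an interval from -0.09 to 0.11. Over the 21 integrated stress response genes, 7 were higher and 1 lower (median 0.10), and without (GT)6 replicate 1 the higher count was 5. The lower gene was *Ddit4*, an inhibitor of mTOR, at 7.68 to 12.7 CPM in (GT)6 and 16.7 to 17.8 CPM in COOH libraries.

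Of 17 p53 and DNA damage genes, 7 were higher and 2 lower (median 0.18). *Mdm2*, the p53 ubiquitin ligase gene, differed by 0.57 with no overlap, at 85.4 to 89.8 CPM in (GT)6 and 55.1 to 61.2 CPM in COOH. Its small rise in COOH (0.14) was lost without COOH replicate 2 or 3 or control replicate 2 or 3, when the difference was 0.53 to 0.61. *Btg2*, an antiproliferative gene, differed by 0.64, and *Gadd45b*, a stress sensor gene, by 0.66 ± 0.09. *Sesn1*, a sestrin gene of the same list, went the other way (-0.59) and fell in both preparations. The second lower gene, *Trp53inp1*, had at most 2 counts per (GT)6 library and 5 to 11 per COOH library. At counts this low the size of its difference is uncertain. The call was lost without (GT)6 replicate 1 (adjusted p = 0.084 by edgeR) or COOH replicate 1 (0.0637). Of 17 heat shock and unfolded protein response genes, 7 were higher and 0 lower. *Herpud1*, an endoplasmic reticulum degradation gene, rose in both (0.40 ± 0.06). *Hspa5*, the chaperone BiP, was called in (GT)6 only (0.18), whereas *Hsp90aa1* (0.17), *Hspa8* (0.16) and *Hspe1* (0.32) were called lower than control in COOH only.

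**Figure D3:**
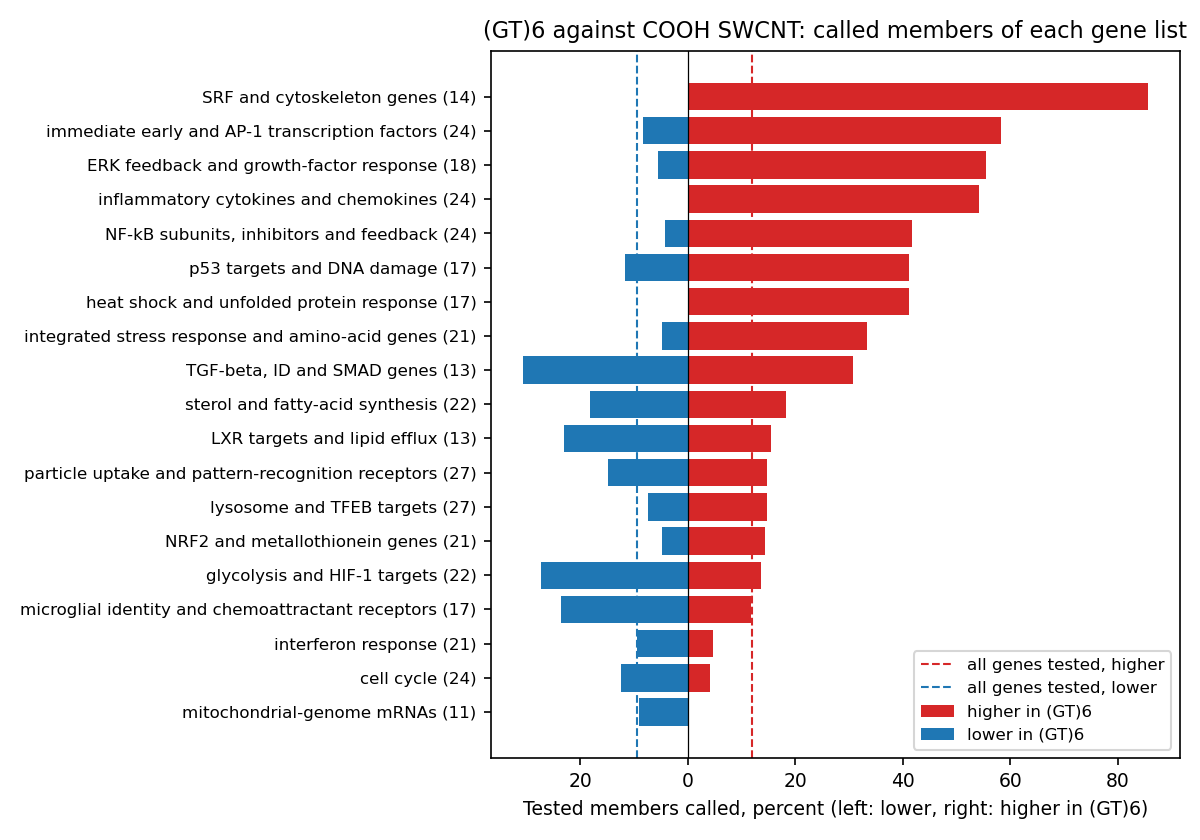
Share of the tested members of each gene list (number in parentheses) that was higher (right, red) or lower (left, blue) in (GT)6 than in COOH, beside the share of all tested genes, 11.9% and 9.48% (dashed). SRF and cytoskeleton genes reach 12 of 14 higher, and cell cycle genes and interferon response genes lie below the share of all genes on the right.

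Shared falls were shallower. *Tor4a*, a torsin ATPase gene, measured 51.7, 52.4 and 51.6 CPM in (GT)6 and 76.9, 80.0 and 81.2 CPM in COOH libraries, from 90.2 to 96.0 CPM in controls. The 3 groups did not overlap (-0.61 ± 0.04). *Cnr2*, the cannabinoid receptor gene of immune cells, measured 10.9, 10.3 and 10.7 CPM in (GT)6 and 15.3, 14.0 and 14.8 CPM in COOH libraries, from 17.8 to 19.0 CPM in controls. It too fell in steps without overlap (-0.47 ± 0.07) and fell further in LPS, to 2.90 to 3.37 CPM. *Rubcnl*, an autophagy regulator gene, was 0.71 lower on the log2 scale in (GT)6 and *Fam53b* 0.68 lower. For *Fam53b* the fall in COOH was lost when any of 5 libraries was left out (COOH replicates 1 and 3 and each control), while its difference stayed called at -0.73 to -0.61. Deeper falls in COOH were led by *Rpl22* (0.57), *Slirp* (0.53) and *Rps27a* (0.50), whose small falls in (GT)6 lost the call in 6 or 7 of 9 fits without a library. Those fits were without (GT)6 replicate 1 or 2, COOH replicate 2 or 3 or control replicate 1 or 3, and for *Rpl22* also (GT)6 replicate 3. The direct call stayed, at 0.52 to 0.62 for *Rpl22*.

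The reverse of the main group, rises larger in COOH, was small. *Nod2*, a cytosolic receptor for bacterial peptidoglycan, measured 20.7, 20.3 and 21.04 CPM in COOH and 17.5, 18.1 and 18.5 CPM in (GT)6 libraries, from 14.5 to 16.1 CPM in controls. These groups did not overlap (-0.20 ± 0.07, edgeR adjusted p = 0.0322), but the call was lost when any 1 of the 6 nanotube libraries was left out, with differences of -0.21 to -0.17. *Tnip1*, an NF-kB inhibitor gene (-0.13), and *Fam20c*, a secreted-protein kinase gene (-0.14), each lost the call in 7 of 9 such fits. *Tnip1* kept it only without (GT)6 replicate 1 or COOH replicate 3, and *Fam20c* only without (GT)6 replicate 2 or COOH replicate 3, with differences down to -0.08 and -0.09. With length and GC trends removed, none of the 5 was called in this class. The replicate block ended the call of *Tnip1* (-0.13, edgeR adjusted p = 0.0507), and the DESeq2 test those of *Nod2*, *Tnip1* and *Fam20c* (adjusted p = 0.0585, 0.0598 and 0.0532).

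Among rises called in (GT)6 only, the chemokine gene *Ccl9* measured 80.3, 70.6 and 78.7 CPM in (GT)6 and 47.5, 49.3 and 54.0 CPM in COOH libraries, from 42.8 to 48.7 CPM in controls. COOH overlapped the controls and (GT)6 lay above both (0.61 ± 0.07, edgeR adjusted p = 5.56e-08). *Clec4e*, the Mincle receptor for damaged cells and mycobacterial lipid, measured 206, 202 and 225 CPM in (GT)6 and 161, 169 and 180 CPM in COOH libraries, from 149.8 to 176 CPM in controls. Its (GT)6 libraries were again apart from the overlapping other groups (0.31 ± 0.06), and LPS reached 669 to 700.4 CPM. For *Pilra*, an inhibitory receptor gene, the class rests on a near miss in COOH (0.24, adjusted p = 0.0571). It was called in both preparations under 4 of 9 other settings and without COOH replicate 1 or control replicate 1, while its difference of 0.73 ± 0.09 stayed called. *Fabp4*, a fatty-acid binding protein gene, was 0.68 higher, with a log2 change of -0.22 in COOH that did not pass but did without control replicate 2.

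Falls called in (GT)6 only were the larger group, 559 genes with a median of -0.29 in (GT)6 and -0.03 in COOH. They included genes of TGF-beta signalling: *Smad3*, its transcription factor, measured 24.3, 27.3 and 25.1 CPM in (GT)6 and 33.4, 34.9 and 34.9 CPM in COOH libraries. Controls held 32.8 to 37.4 CPM, so COOH overlapped the controls and (GT)6 lay below both (-0.43 ± 0.07). The receptor genes *Tgfbr1* (-0.31) and *Tgfbr2* (-0.26) were in the same class, and over the 13 genes of this list 4 were higher and 4 lower, with 1 higher without (GT)6 replicate 2. *Tlr5*, the flagellin receptor, measured 5.30, 4.94 and 6.62 CPM in (GT)6 and 10.1, 8.52 and 8.07 CPM in COOH libraries, from 8.19 to 10.4 CPM in controls. It differed by -0.69 ± 0.13 with no overlap between preparations. *Zfp395*, a zinc-finger gene, was lower by -0.71 ± 0.08 and *Ccng2*, a cyclin gene linked to growth arrest, by -0.78 ± 0.13. LPS lowered *Tlr5* and *Zfp395* but raised *Ccng2* (0.47).

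*Scd2*, a fatty-acid desaturase gene, measured 646, 657 and 668 CPM in (GT)6 and 806, 785 and 761 CPM in COOH libraries, from 790.1 to 806 CPM in controls. The (GT)6 libraries lay below all others (-0.26 ± 0.04). *Fasn* (-0.22, and -0.11 with length and GC trends removed) and *Acaca* (-0.21), which make fatty acids, were lower too, while the sterol synthesis genes *Sc5d* (0.20) and *Msmo1* (0.19) were called higher in (GT)6 only. Without (GT)6 replicate 3, control replicate 2 or control replicate 3 *Fasn* lost its class but kept its direct call, at -0.23 to -0.21, and without control replicate 2 *Acaca* did the same (-0.22 to -0.19 over such fits). Over 22 sterol and fatty-acid genes, 4 were higher and 4 lower. *Ccnd1*, the cyclin D1 gene (-0.29 ± 0.04), and *Egln3*, an oxygen-sensing hydroxylase gene (-0.41 ± 0.06), were in the class as well, and the gene *LTO1* lies over part of *Ccnd1*.

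Rises called in COOH only were 173. *Abca1*, the cholesterol exporter, measured 50.5, 48.6 and 46.3 CPM in COOH and 30.1, 33.8 and 36.2 CPM in (GT)6 libraries, from 33.4 to 34.6 CPM in controls. COOH stood above both other groups, which overlapped (-0.54 ± 0.07, edgeR adjusted p = 5.3e-07), and LPS raised it as well. *Abcg1*, a partner exporter regulated by the same receptor LXR, went the other way and was called lower than control in both preparations (difference -0.22). The direct call was lost without (GT)6 replicate 2 or 3 or COOH replicate 2 (-0.26 to -0.17 over all such fits). Its class, a fall in both and deeper in (GT)6, was kept in only 2 of 9 fits without a library. Of 13 LXR and lipid efflux genes, 2 were higher and 3 lower, with 1 higher without (GT)6 replicate 1. *Hk2*, a glycolytic enzyme gene (-0.24), was in the COOH-only class, and over 22 glycolysis and HIF-1 genes 3 were higher and 6 lower in (GT)6. *Crocc*, a ciliary rootlet gene at 4.51 to 8.84 CPM, led by size (-0.63 ± 0.14), and lost the COOH call without COOH replicate 3 or control replicate 2.

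**Figure D4:**
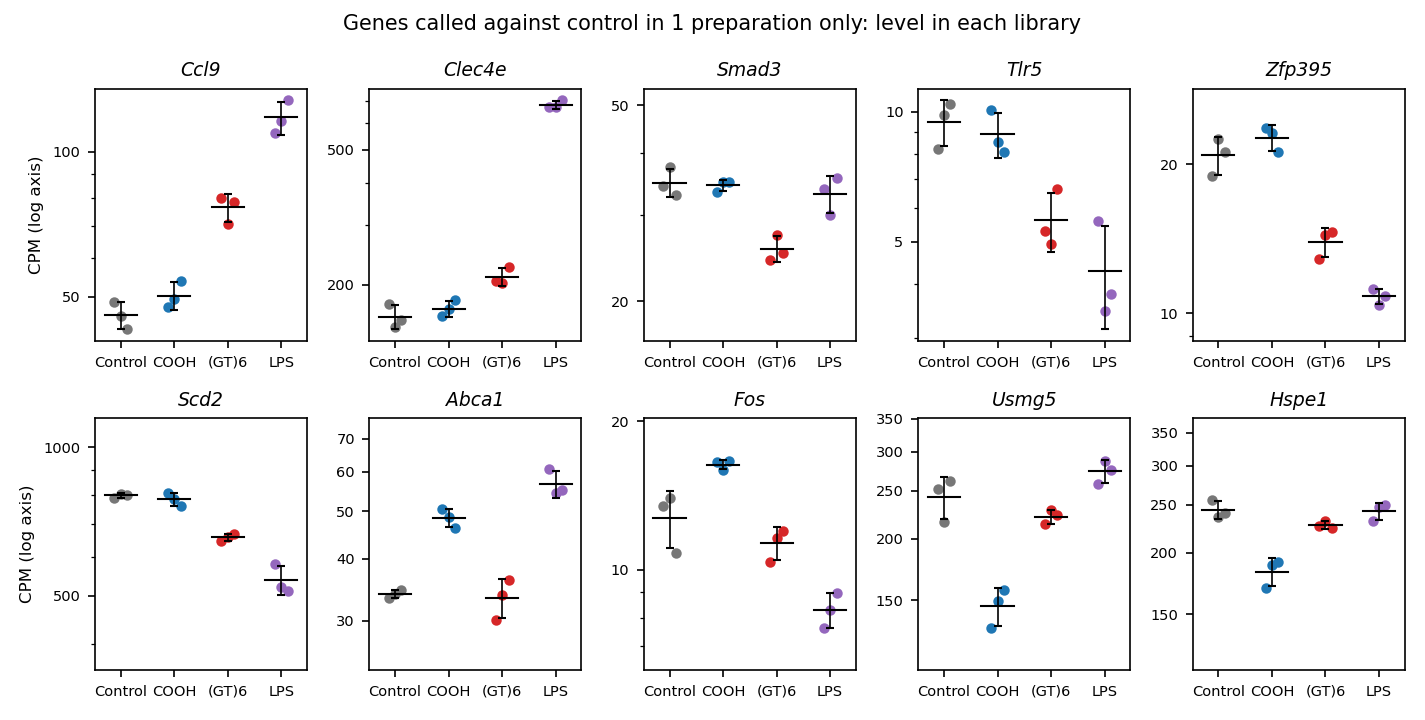
Level in each library (points, 3 per group; CPM on a log axis) of 10 genes called against control in a single preparation, with the group mean (line) and SD (bars). *Ccl9* to *Scd2* differ from control in (GT)6, and *Abca1* to *Hspe1* in COOH, where *Abca1* lies at 46.3 to 50.5 CPM.

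Falls called in COOH only were the largest class, 645 genes with a median of -0.25 in COOH and -0.01 in (GT)6. *Usmg5*, a small subunit of the mitochondrial ATP synthase, measured 132, 149 and 157 CPM in COOH and 214, 228 and 223 CPM in (GT)6 libraries, from 216 to 261 CPM in controls. COOH lay below both other groups (0.60 ± 0.07), and the gene *Taf5* overlaps it. *Hspe1*, a mitochondrial chaperonin gene, measured 170, 189 and 191 CPM in COOH and 226, 232 and 224 CPM in (GT)6 libraries (0.32 ± 0.05). *1810022K09Rik* (0.69) and *3830403N18Rik* (0.62) led by size, and both were also called in (GT)6 in several other fits, *1810022K09Rik* without (GT)6 replicate 3 or control replicate 2 and *3830403N18Rik* without control replicate 2. Both also fell against control in each of the 3 dyes and AAV, *1810022K09Rik* by 0.34 to 0.63 and *3830403N18Rik* by 0.26 to 0.55 on the log2 scale, and *Usmg5* did so in Fura-2, Di2ANEPEQ and AAV.

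The cytosolic ribosomal protein genes, a group picked by symbol after their values were seen and described only by counts, were mostly in this class. Of 83, 74 were higher and 0 lower in (GT)6 than in COOH (median 0.26), 67 were below control in COOH, and 4 were below control in (GT)6. Their summed level was 59880, 65540 and 65400 CPM in COOH and 77540, 75950 and 75280 CPM in (GT)6 libraries, with 79440, 74040 and 77160 CPM in controls. COOH was thus below both groups, which overlapped. The sums in Di2ANEPEQ (68620 to 71610 CPM) and AAV (69090 to 73260 CPM) also lay below every control, and those in LPS (74490 to 86030 CPM) did not. Reads of these genes may be shared with their many pseudogenes. Nuclear genes of oxidative phosphorylation subunits (46 of 83 higher in (GT)6, 0 lower) and mitochondrial ribosomal protein genes (42 of 77 higher, 1 lower) resembled them. The 11 tested mRNAs of the mitochondrial genome did not: only *mt-Nd5* was called, lower in (GT)6 (-0.16), and it lost the call without (GT)6 replicate 1 or COOH replicate 1 or 2 (-0.17 to -0.13). With the length and GC trends described next removed, 4 were called lower. Without COOH replicate 1 the higher counts were 63 ribosomal, 33 oxidative phosphorylation and 31 mitochondrial ribosomal genes.

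Exon length moved with this class, and its part in the result was not tested beyond the values given here. In 5 equal bins of exon length the median difference ran from 0.10 in the shortest to -0.06 in the longest, and the COOH response ran from -0.09 to 0.05 while that of (GT)6 stayed between -0.02 and -0.01. Median exon length was 2590 bases in the COOH-only falls and 5777 bases in the (GT)6-only falls, against 4013 over all tested genes. With length and GC trends removed from each library, 2649 genes differed, and the number lower in (GT)6 went from 1244 to 768. The same genes kept their class in 91.9% of the shared rises larger in (GT)6, 86.7% of the (GT)6-only rises, 78.9% of the COOH-only falls, 63.9% of the (GT)6-only falls and 32.9% of the COOH-only rises. *Abca1* and *Fos* kept theirs, *Crocc* did not, and *Hspe1* then fell in both preparations and more in COOH. The ribosomal protein genes were still higher in (GT)6 in 73 of 83.

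**Figure D5:**
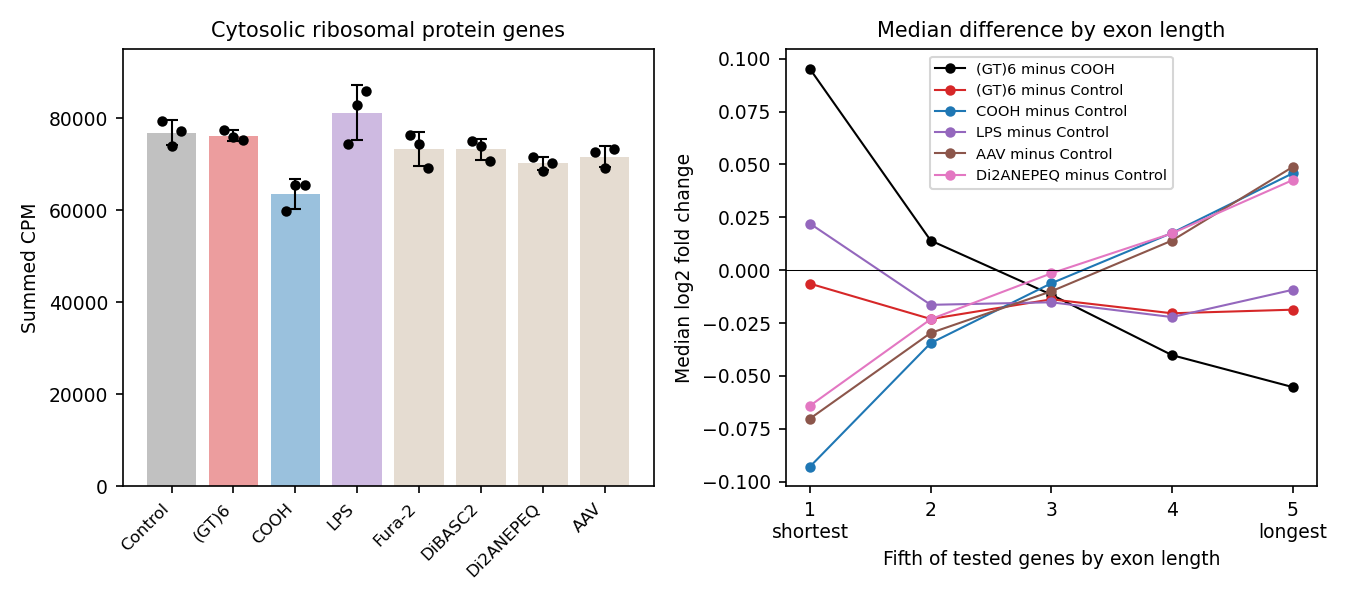
Left, summed CPM of 83 cytosolic ribosomal protein genes in each library (points), with the mean of 3 libraries (bar, from 0) and SD. Right, median log2 fold change of the tested genes in 5 equal bins of exon length, for (GT)6 minus COOH and for 5 groups minus control. COOH has the lowest sums, 59880 to 65540 CPM, and its response rises with length from -0.09 to 0.05, as do those of AAV (-0.07 to 0.05) and Di2ANEPEQ (-0.06 to 0.04).

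Of the 18 genes called in opposite directions, 13 rose in (GT)6 and fell in COOH, and 5 fell in (GT)6 and rose in COOH. The class had a median of 0.12 in (GT)6 and -0.14 in COOH, and 3 of its genes differed by at least 0.5. The 3 that the naming rule picked by size were all of the smaller set. *Spata13*, an exchange factor gene for small GTPases, measured 21.4, 21.3 and 22.2 CPM in (GT)6 and 35.8, 29.9 and 31.5 CPM in COOH libraries, from 25.9 to 29.8 CPM in controls. The 3 groups did not overlap (-0.59 ± 0.07), but the COOH rise was lost without COOH replicate 1 or control replicate 3 and with length and GC trends removed. *Csf2rb2*, the receptor subunit gene for interleukin-3 (-0.43 ± 0.05), and *Zkscan8*, a zinc-finger gene (-0.58 ± 0.08), also fell in (GT)6 and rose in COOH. *Csf2rb2*, whose reads may be shared with its close paralog *Csf2rb*, lost this class without (GT)6 replicate 1, and *Zkscan8* without (GT)6 replicate 2, COOH replicate 1, control replicate 2 or control replicate 3. Of the 1632 genes called in a single preparation and the 702 called in neither, 613 had an unadjusted p under 0.05 in a comparison with control that was not called, or in either one, and so lie between classes.

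Most of the remaining lists lay nearer the shares of all genes, 11.9% higher and 9.48% lower, except for the lower share of the microglial identity list. Of 21 NRF2 and metallothionein genes, 3 were higher and 1 lower, with intervals of the difference from -0.14 to 0.09 for *Hmox1*, the heme oxygenase gene, and from -0.09 to 0.08 for the ferritin gene *Fth1*. Of 21 interferon response genes 1 was higher and 2 lower, of 24 cell cycle genes 1 and 3, and of 27 lysosome genes 4 and 2. Without (GT)6 replicate 1 the higher counts of the NRF2 and lysosome lists were 1 each, and without COOH replicate 1 those of the cell cycle and uptake lists were 0 and 2. Receptors for particle uptake and pattern recognition gave 4 of 27 higher, including the LPS co-receptor gene *Cd14* (0.19), and 4 lower, including *Stab1* (-0.23), a scavenger receptor gene that lost its fall against control without (GT)6 replicate 2 or control replicate 2. Of 17 microglial identity and chemoattractant receptor genes 2 were higher, the complement receptor genes *C5ar1* (0.36 ± 0.04) and *C3ar1* (0.26), and 4 lower. Of these *Csf1r*, the receptor for the growth factor *Csf1*, kept its direct call (-0.18, and -0.20 to -0.15 without 1 library), but its fall in (GT)6 was called in only 2 of those 9 fits.

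LPS shares no library with the direct comparison, and so could be set beside it. Of the 1557 genes higher in (GT)6, 35.3% were raised and 3.79% lowered by LPS against control, where LPS raised 1809 of all tested genes (13.8%) and lowered 1908 (14.5%). Of the 1244 genes lower in (GT)6, 47.9% were lowered and 7.48% raised. Across all tested genes the difference between preparations correlated weakly with the LPS response (Pearson r = 0.21, Spearman rho = 0.30). Over the 552 genes called in LPS with a log2 change of at least 1, Pearson r was 0.42. Among differences of at least 1, LPS raised 43.8% and lowered 3.12% of the 32 higher genes. It raised 17.9% and lowered 15.4% of the 39 lower genes. *Cxcl2* and *Tnf* were far higher in LPS than in either preparation: *Cxcl2* reached 1079, 1222 and 1223 CPM and *Tnf* 1082 to 1176 CPM. For *Ccl7* the (GT)6 rise of 2.35 was beside an LPS rise of 2.08, and for *C5ar1* 1.14 was beside 1.12. *Egr3*, *Vcl* and *Zyx* rose in the preparations and did not pass in LPS. *Fos* fell in LPS (-0.62), and *Abca1*, called higher than control in COOH only of the 2 preparations, was raised by LPS (0.74). The gene lists and members were drawn up with earlier results of these data known, so their counts describe these libraries.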

How the data were processed

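Poly-A RNA sequencing measured gene expression in 24 SIM-A9 libraries, 3 in each of 8 groups taken from the labels. The deposited file holds whole-number counts per gene, with no normalization by the authors visible in it. STAR 2.5.4b and the build GRCm38.p6 are named in the submitters' processing notes. The counting program, its use of strand, its handling of reads that match several places and the annotation are not given in the sources used here, so overlapping genes and genes with near copies are uncertain. Gene identifiers were matched without version to GENCODE M21 of the same build for 54809 of 54838, and coordinates come from it.

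Genes were filtered with filterByExpr and scaled with TMM factors in edgeR 4.0.16 (R 4.3.3, limma 3.58.1). A single model of group means was fitted to all 24 libraries (16 residual degrees of freedom, biological coefficient of variation 4.12%) and tested by quasi-likelihood, with Benjamini-Hochberg adjustment over 13116 genes per contrast at 0.05. Standard errors are the fold change divided by the root of F. Classes came from the direct contrast and each preparation against control. Named genes were the 3 with the largest direct difference per class (protein-coding, at least 5 CPM on average, no overlap between preparations), up to 2 per gene list, and *Tnf*, *Il1b*, *Cxcl2*, *Gdf15* and *Egr3*; other list members serve as examples. Members and lists were chosen with earlier results of these data known. The fits were tested on simulated counts. The main fit did not pair samples by replicate number. The correlation of same-numbered deviations was -0.01 to 0.07, against -0.06 to 0.05 for different numbers, which cannot settle whether samples were paired. Replicates of a group differed by more than counting noise (chi-square over its degrees of freedom, 2.46 to 12.8). Alternatives were other scaling factors, other low-count filters, a replicate block, removal of length and GC trends (13103 genes with values), only the 3 groups, the DESeq2 1.42.0 test and leaving out each library.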

Additional observations from a re-analysis of the deposited data

Results flagged for a closer look

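Some named genes lower in (GT)6 than in COOH were also called higher than control in groups outside the comparison, by edgeR's quasi-likelihood test. In DiBASC2, as the labels spell this dye, *Ccng2* was higher by 0.51 on the log2 scale, *Crocc* by 0.45, *Zfp395* by 0.41 and *Zkscan8* by 0.38. *Rubcnl* was higher there by 0.31, *Cnr2* by 0.25, *Tor4a* by 0.22 and *Csf2rb2* by 0.21. *Tor4a*, which fell in both nanotube preparations, stood at 108.3 ± 2.60 CPM in DiBASC2 and 93.2 ± 2.90 CPM in controls (SD, n = 3 each). In AAV, *Spata13* was higher by 0.22. These comparisons use the same control libraries as those of the nanotubes.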

How the results depend on the processing

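Of the 63 named genes, 50 kept the direct call under every alternative and 33 kept both call and class, and none of 1131 alternative values reversed. At the depth of these libraries, 48 of the 71 differences of at least 1 averaged under 1 CPM. The replicate block gave 2748 differing genes (56% higher in (GT)6) and moved none of the 18 counts and shares compared by over 1.5 times; of the named genes it ended the call of *Tnip1*.

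The share higher in (GT)6 was 55.6%, 44.4% with upper-quartile factors (2887 genes), 71.0% with length and GC trends removed (2649) and 71.2% with the replicate block added to that removal (2575). Removal alone and with the replicate block gave 768 and 741 genes lower in (GT)6, 401 and 396 (GT)6-only rises, 70 and 63 COOH-only rises, 66 and 59 shared falls deeper in COOH and 0 and 0 shared rises larger in COOH. That last class held 11 genes with upper-quartile factors and 9 with only the 3 groups. Shared falls deeper in COOH were 57 without the low-count filter. Differences of at least 1 were 13 with a mean of 50 counts and 47 by DESeq2. Of genes higher in (GT)6, LPS raised 31% with upper-quartile factors. Of genes lower in (GT)6, LPS lowered 51.9%, 58.1% and 57.9% with upper-quartile factors, trends removed and trends removed with the block.

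Requiring an unadjusted p of at least 0.05 in the other comparisons left 259 genes called in neither preparation. Requiring a difference of at least 0.5 left 68 and 0 shared rises larger in (GT)6 and COOH, 12 and 3 shared falls, 30 rises and 56 falls in (GT)6 only, 19 and 40 in COOH only, 3 opposite and 67 in neither.

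Leaving out each library gave 1923 (without COOH replicate 1) to 2808 differing genes, 1180 to 1733 higher and 740 (without COOH replicate 1) to 1166 lower, and 47 (without (GT)6 replicate 1) to 102 (without (GT)6 replicate 3) of at least 1. (GT)6 against control gave 1980 to 2669 and COOH 1786 to 2600. Shared rises larger in (GT)6 were 265 to 344 and in COOH 1 to 11, and shared falls 54 to 81 and 2 to 42. Changes in (GT)6 only were 162 to 329 rises and 343 to 487 falls, in COOH only 80 to 186 and 387 to 663, with 5 to 16 opposite and 439 to 1020 in neither. The LPS shares were 29.4% to 42.2% and 43.3% to 53.4%.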
